A study of Mus musculus with 1615 samples.

Results

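The 41 genes described here encode the fibrils, elastic fibres and associated glycoproteins of connective tissue: 6 fibrillar collagen chains, 7 other collagen chains, 12 elastic fibre and microfibril proteins, 3 crosslinking enzymes, 7 small leucine-rich proteoglycans and 6 adhesive or matricellular glycoproteins. They were taken by gene symbol from a table of read counts that lists 46517 Ensembl gene identifiers beside 92 spike-in controls, and each of the 41 symbols had a row. The counts come from 1615 single cells sorted from the colon of 11 mice into plates, 1 cell per well, and sequenced by Smart-Seq2, a method that reads whole transcripts and attaches no molecular identifiers. The question asked of them is which cell type of the colon wall makes which component.

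All 11 mice carried fluorescent reporters, and no treatment is labelled. Mice 20GG79:1 (female), 20GG79:6 (male) and 20GG95:3 (female) belonged to the line ACTA2GFP:CSPG4dsRED and gave 22.2%, 14.99% and 31.3% of the cells. The other 8 mice were male: 17E61:24, 19CB4:5 and 18CB155:7 of line PDGFRbGFP, 19CB27:3 of CSPG4dsRED, 18CB39:3 and 18CB109:10 of PDGFRaH2bGFP, and 19CB38:5 and 19CB34:7 of ACTA2GFP. The reporters decide which cells a sort can collect, the gates are not given in the labels, and so the number of cells of a type is not a measure of its abundance in the colon. The labelled age is 8 to 30 weeks for every cell, whereas the series text gives a narrower range and speaks of males only. The labelled tissue is colon, whereas the extraction text names heart. In the clusters named next, all 7 epithelial and all 6 glial markers were detected, and at least 6 of the 7 visceral muscle markers.

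Cells were grouped by expression with the 41 genes left out, and each cluster was named from marker genes, hence the names ending in "-like". Of the 1615 cells 220 were fibroblast-like, 550 visceral smooth muscle-like, 75 lymphatic endothelium-like and 41 glia-like, while blood endothelium-like cells made up 22.4%, pericyte-like cells 10.4% and vascular smooth muscle-like cells 6.69%. The visceral cells were split into an F2r-high subtype (26.4% of all cells) and an Ano1-high subtype (6.38%), and 100 of the Ano1-high cells came from mouse 20GG95:3. Epithelium-like (61) and immune-like (30) cells served as background. All 9 fibroblast markers were above 0 in the fibroblast-like sums, where they added up to 6479 to 6849 CPM, that is counts scaled to a common library total, but they also added up to 1460 to 3582 CPM in F2r-high visceral cells and 1318 to 1487 CPM in glia-like cells. The median cell held 194180 gene counts, the shallowest 45388 and the deepest 1046988. Class medians ran from 120054 in pericyte-like to 276341 in fibroblast-like cells.

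The replicate is the mouse: counts were added over the cells of a class in each mouse with at least 5 such cells, and levels are given as CPM of all gene counts. Per-mouse values always follow the same order. Fibroblast-like values are those of mice 19CB38:5 (5 cells), 20GG79:1 and 20GG79:6, and F2r-high visceral, whole visceral and pericyte-like values those of 20GG79:1, 20GG79:6 and 20GG95:3. Vascular muscle has 20GG79:1 and 20GG95:3, lymphatic endothelium 17E61:24, 18CB109:10 (5 cells), 18CB39:3 and 19CB27:3, and glia 19CB27:3 and 20GG79:6. Ano1-high visceral values are from 20GG95:3 alone, and blood endothelium, with 6 mice, is given by its lowest, median and highest value.

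Collagen types I, III and V assemble into the banded fibrils that carry tension, while types XII, XIV and XVI sit on fibril surfaces and type VI forms beaded filaments around cells. Elastic fibres consist of an elastin core on a scaffold of fibrillin microfibrils, to which fibulins, microfibril-associated proteins and latent TGF-beta binding proteins attach, and lysyl oxidases crosslink both collagen and elastin. Small leucine-rich proteoglycans bind collagen and set fibril thickness, whereas periostin, tenascins, thrombospondins and fibronectin connect the matrix to cells. In the gut wall this matrix surrounds the crypts, fills the submucosa and binds the muscle layers together.

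Promoter sequence from the RefSeq table of build GRCm38.p6 was found for 27 of the 41 genes. The 5 shown belong to 2 pairs of neighbouring genes whose levels ran in parallel across classes (Aspn with Ogn, Col6a1 with Col6a2) and to Postn, whose level was highest in F2r-high visceral cells. Each is the 250 bases before the listed start site, and capitals mark the TATA box letters TATAAA, the CCAAT box letters CCAAT and the AP-1 letters TGANTCA on either strand.
Aspn, chr13:49544193-49544442, plus strand: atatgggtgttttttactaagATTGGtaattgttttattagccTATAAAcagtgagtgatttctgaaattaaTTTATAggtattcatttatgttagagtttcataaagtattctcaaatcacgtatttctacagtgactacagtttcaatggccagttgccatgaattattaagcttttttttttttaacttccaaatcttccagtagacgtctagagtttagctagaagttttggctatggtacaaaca
Ogn, chr13:49607765-49608014, plus strand: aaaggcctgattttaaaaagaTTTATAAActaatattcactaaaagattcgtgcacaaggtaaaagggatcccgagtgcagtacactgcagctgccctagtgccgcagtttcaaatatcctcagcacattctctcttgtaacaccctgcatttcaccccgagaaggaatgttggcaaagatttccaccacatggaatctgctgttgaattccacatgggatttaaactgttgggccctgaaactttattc
Col6a1, chr10:76726045-76726294, minus strand: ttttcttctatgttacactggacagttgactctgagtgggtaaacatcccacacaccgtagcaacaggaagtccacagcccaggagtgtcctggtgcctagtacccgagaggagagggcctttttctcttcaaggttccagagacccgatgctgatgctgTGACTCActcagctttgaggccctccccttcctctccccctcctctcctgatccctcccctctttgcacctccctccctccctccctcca
Col6a2, chr10:76623631-76623880, minus strand: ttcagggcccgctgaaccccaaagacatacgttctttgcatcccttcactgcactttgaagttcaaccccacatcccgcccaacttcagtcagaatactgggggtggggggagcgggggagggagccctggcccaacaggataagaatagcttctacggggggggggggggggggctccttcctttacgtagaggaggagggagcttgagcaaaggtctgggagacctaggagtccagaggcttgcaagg
Postn, chr3:54360857-54361106, plus strand: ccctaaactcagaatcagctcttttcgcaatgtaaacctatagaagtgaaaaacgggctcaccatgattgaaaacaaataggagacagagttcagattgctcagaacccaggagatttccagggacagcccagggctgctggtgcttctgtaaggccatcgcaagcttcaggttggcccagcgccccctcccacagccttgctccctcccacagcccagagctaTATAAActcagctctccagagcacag
Aspn holds TATAAA once on each strand and CCAAT once. Postn holds TATAAA at 26 bases before the start site. Col6a1 holds TGACTCA, a match to the palindromic TGANTCA, at 90 bases before the listed start, which is not the GENCODE gene start, whereas the Col6a2 window has none of the 3 motifs. Among the 27 members, TATAAA was found in 6 (22.2%, against 12.4% of all 32851 promoters of the same length), CCAAT in 10 (37.04% against 33.8%), GGGCGG in 13 (48.1% against 32.7%) and TGANTCA in 2 (7.41% against 6.75%), and the CArG box, searched by name, in 0 (1.47% of all). The letters are descriptions of these windows and show no binding.

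As a whole the 41 genes took 5.75% ± 1.61 of all gene counts in fibroblast-like cells (SD over mice, n = 3) and 4.17% ± 0.317 in F2r-high visceral cells (n = 3). Ano1-high visceral cells gave 2.43%, pericyte-like cells 1.96% ± 0.491 (n = 3) and glia-like cells 1.63% ± 0.731 (n = 2). Vascular muscle (0.812% ± 0.0355, n = 2), lymphatic endothelium (0.780% ± 0.193, n = 4) and blood endothelium (0.486% ± 0.275, n = 6) followed. Matrix transcripts thus took a larger part of the RNA counted in fibroblasts and F2r-high visceral cells than in vascular muscle and the endothelia. Pericyte-like, glia-like and Ano1-high visceral cells lay between them. Immune-like cells gave 0.0620% ± 0.0313 (n = 2), and epithelium-like cells 1.04% ± 1.08 (n = 5). The epithelial value was uneven: Col1a1 stood at 13.2, 730.3, 130, 949 and 2555 CPM in mice 17E61:24, 18CB155:7, 19CB27:3, 19CB4:5 and 20GG79:6, while immune-like cells had 9.42 and 61.1. Col1a1 was thus counted in wells of a class that is not known for making it, at levels that differed between mice, and what this means for low values in other classes was not tested.

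The fibroblast-like class had the highest mean level of 26 of the 41 genes, where 12.1% of the 11791 genes with at least 10 CPM in some class were highest there. F2r-high visceral cells led for 6 genes (5.89% of all genes): Mfap5, Emilin1, Ltbp1, Ltbp4, Ogn and Postn. Glia led for Col5a3, Col12a1 and Col16a1 (17.4% of all genes), lymphatic endothelium for Loxl2, Prelp and Tnxb (20.7%), Ano1-high visceral cells for Fmod and Aspn (9.17%) and vascular muscle for Thbs1 (10.8%). Pericyte-like and blood endothelium-like cells led for 0 of the 41, against 12.7% and 11.3% of all genes. Many of these leads are within the spread of mice. The ranking also sets classes from different mice side by side. Lymphatic endothelium shares no mouse with the fibroblast, visceral, vascular and pericyte values. Between them class cannot be told apart from mouse, line and plate. All mice of the leading class lay above all mice of the 7 other classes for 11 of the 41 genes, against 11.5% of all genes: Fbn1, Fbln1, Mfap4, Loxl1, Dcn, Lum, Fn1 and Thbs2 in fibroblasts, Postn in F2r-high visceral cells, Thbs1 in vascular muscle and Aspn in Ano1-high visceral cells, which have 1 mouse. The number of genes led by fibroblasts was 22 without mouse 20GG79:1 and at most 27 without any other mouse.

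Fibrillar collagens were shared between fibroblasts, visceral muscle and, to a lesser degree, pericytes and glia. Col1a1, a chain of type I, stood at 2213, 6635 and 5723 CPM in fibroblasts, 2636, 2341 and 2302 CPM in F2r-high visceral cells and 871 CPM in Ano1-high visceral cells. Pericytes had 1978, 715 and 1323 CPM of it and vascular muscle 452.8 and 435.1. Fibroblast and visceral ranges overlapped through mouse 19CB38:5, whose 5 fibroblast-like cells gave the lowest value. Col1a1 in glia was 773 and 2504 CPM, while lymphatic endothelium had 3.35 to 50.9 CPM, at the level of immune-like cells. The higher glial value is from mouse 20GG79:6, whose epithelium-like cells had 2555 CPM. In blood endothelium Col1a1 ran from 12.7 to 234.02 CPM with a median of 38.2, and the 2 highest mice, 19CB4:5 and 20GG79:6, were also the ones with the highest epithelial values. Without them the mean of blood endothelium was 26.9 ± 13.9 CPM (n = 4) in place of 89.1 ± 97.7 (n = 6).

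Col3a1, the single chain of type III, reached 3190, 8383 and 6522 CPM in fibroblasts. F2r-high visceral cells had nearly the same amount, 5495, 4871 and 5189 CPM, within the fibroblast range, and pericytes had 3655, 2101 and 3809 CPM. Vascular muscle stood far lower, at 384.4 and 253.6 CPM, with no overlap with any of these 3 classes. Col1a2, the other chain of type I, ranged from 1872, 6232 and 6194 CPM in fibroblasts to 771 and 794 CPM in vascular muscle.

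The type V chains, which nucleate fibrils and limit their width, did not share a single source. Col5a1 was 284.9, 840 and 778 CPM in fibroblasts against 15.5 and 14.3 CPM in vascular muscle. Col5a2, which lies beside Col3a1 on chromosome 1 in opposite orientation, was 494.04, 1515 and 1024 CPM in fibroblasts and 1068, 805 and 753 CPM in F2r-high visceral cells. The third chain differed: Col5a3 was 464.1 and 1136 CPM in glia and 772, 289.2 and 340 CPM in pericytes, whereas fibroblasts had 166.1, 253.97 and 235.1 CPM and F2r-high visceral cells 87.01, 90.1 and 45.3 CPM. Pericytes of all 3 mice exceeded every fibroblast value for Col5a3, while glia and pericytes overlapped.

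Type VI chains form the pericellular beaded filament. Col6a1 was 1261, 3798 and 4216 CPM in fibroblasts and 2687, 2888 and 3003 CPM in F2r-high visceral cells, ranges that overlap. Its neighbour Col6a2 was 1753, 4041 and 5112 CPM in fibroblasts and 2425, 2619 and 3308 CPM in F2r-high visceral cells. Pericytes had 2092, 950 and 1955 CPM of Col6a1 and vascular muscle 282.3 and 174.6 CPM, again apart. Col6a3 was more evenly spread, with 433.7, 1118 and 1005 CPM in fibroblasts, 1188, 444.3 and 725 CPM in pericytes and 464.1 and 772 CPM in glia.

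The fibril-associated collagens had different sources. Col12a1, which links fibrils to their surroundings, was 1036 and 676 CPM in glia, 429.4, 908 and 1111 CPM in fibroblasts and 714, 655 and 878 CPM in F2r-high visceral cells. The 3 classes overlapped for Col12a1, while pericytes had 108.2, 19.5 and 80.5 CPM and vascular muscle 24.8 and 7.13 CPM. Col14a1, a related collagen, was 818, 598 and 211.02 CPM in fibroblasts and 462.8 and 559 CPM in glia, against 7.29, 96.9 and 4.34 CPM in F2r-high visceral cells. Visceral muscle thus carried Col12a1 at the fibroblast level and Col14a1 at the level of pericytes, which had 14.4 to 101.7 CPM. Col16a1 was 133.1 and 703 CPM in glia, 54.1, 373.6 and 376.7 CPM in fibroblasts and 204.6, 256.6 and 288.5 CPM in F2r-high visceral cells. Col8a1, a short-chain network collagen, was uneven between mice, with 504.5, 103.3 and 34.4 CPM in fibroblasts and 5.14, 2.42 and 137.6 CPM in pericytes.

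Elastin itself had no single source. Eln was 240.6, 623 and 204.1 CPM in fibroblasts, 151.2 and 232.2 CPM in vascular muscle and 115.7, 410, 218.8 and 22.8 CPM in lymphatic endothelium. In blood endothelium Eln ran from 81.1 to 236.3 CPM with a median of 106.2, whereas F2r-high visceral cells had 62.1, 98.1 and 55.3 CPM and glia 1.30 and 14.3 CPM. The mean of Eln in blood endothelium was 116.7 ± 40.3 CPM without mice 19CB4:5 and 20GG79:6 and 132.7 ± 60.3 CPM with them. Fbn1, fibrillin-1 of the microfibril, was 1905, 1140 and 883 CPM in fibroblasts, above every other class, followed by F2r-high visceral cells (272.9, 444.3 and 315.1 CPM) and pericytes (463.2, 189.003 and 306.5 CPM).

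The fibulins, which bridge elastin and microfibrils, divided between classes. Fbln1 was 2099, 3532 and 2707 CPM in fibroblasts and at most 589 CPM in any other mouse and class of the 8. Fbln2 had 2 separate sources: it was 1075.5, 744 and 563 CPM in fibroblasts and 418.6 to 1000 CPM, with a median of 547, in blood endothelium. F2r-high visceral cells had 10.3, 47.5 and 2.20 CPM of Fbln2, vascular muscle 8.99 and 2.19 and lymphatic endothelium 86.8, 16.7, 34.98 and 35.6 CPM. Without the 2 mice with high epithelial Col1a1, the mean of Fbln2 in blood endothelium was 492.5 ± 64.7 CPM (n = 4) in place of 637.9 ± 235.1 (n = 6). Fbln5 was 657, 781 and 765 CPM in fibroblasts, 607 and 781 CPM in glia, 468.1, 428.4 and 425.8 CPM in F2r-high visceral cells and 150 to 435.2 CPM in blood endothelium. Mural cells were the low end for Fbln5, with 24.8, 49.8 and 64.9 CPM in pericytes and 14.4 and 4.69 CPM in vascular muscle.

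Microfibril-associated proteins and emilin, which coat elastic fibres, had sources of their own. Mfap4 was 997, 1000 and 707 CPM in fibroblasts and 291.6, 300 and 472.8 CPM in F2r-high visceral cells, against 40.8, 12.5 and 9.94 CPM in pericytes. Mfap5 was 1082, 290 and 104.2 CPM in fibroblasts and 689, 234.6 and 586 CPM in F2r-high visceral cells, a wide spread between mice in both. Mfap2 was 97.2, 172.6 and 206.5 CPM in fibroblasts and, unlike the other microfibril-associated genes, 30.2 to 142.1 CPM in blood endothelium. Emilin1, an elastic fibre glycoprotein, was 935, 929 and 1162 CPM in F2r-high visceral cells, 279.3, 1159 and 1262 CPM in fibroblasts and 651 and 682.01 CPM in vascular muscle. Vascular muscle thus carried Emilin1 within the range of fibroblasts, unlike Col1a1 and Col3a1. Reads of Mfap4 and of the opposite-strand gene Mapk7 overlap on the genome and cannot be told apart if the counting ignored strand.

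Of the latent TGF-beta binding proteins, which anchor the growth factor in the matrix, Ltbp1 and Ltbp4 had their highest mean in F2r-high visceral cells. Ltbp4 was 3381, 3791 and 4835 CPM in F2r-high visceral cells and 1424, 3365 and 3367 CPM in fibroblasts. Both endothelia carried it too, with 1430, 2447, 3059 and 1755 CPM in the lymphatic and 1030 to 3564 CPM, median 1354, in the blood endothelium. Vascular muscle had 205.7 and 244.9 CPM of Ltbp4, the lowest of the 8 classes. Ltbp1 gave another order: 1011, 782 and 872 CPM in F2r-high visceral cells, 721 and 652 CPM in vascular muscle, 318.3, 783 and 247.5 CPM in pericytes and 134.7, 366.6 and 407.7 CPM in fibroblasts. Ltbp2 was near 0 in most sums, at most 13.4 CPM outside fibroblasts, where mouse 20GG79:6 gave 43.9 CPM and the other mice 0.615 and 0.130.

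**Figure D1:**
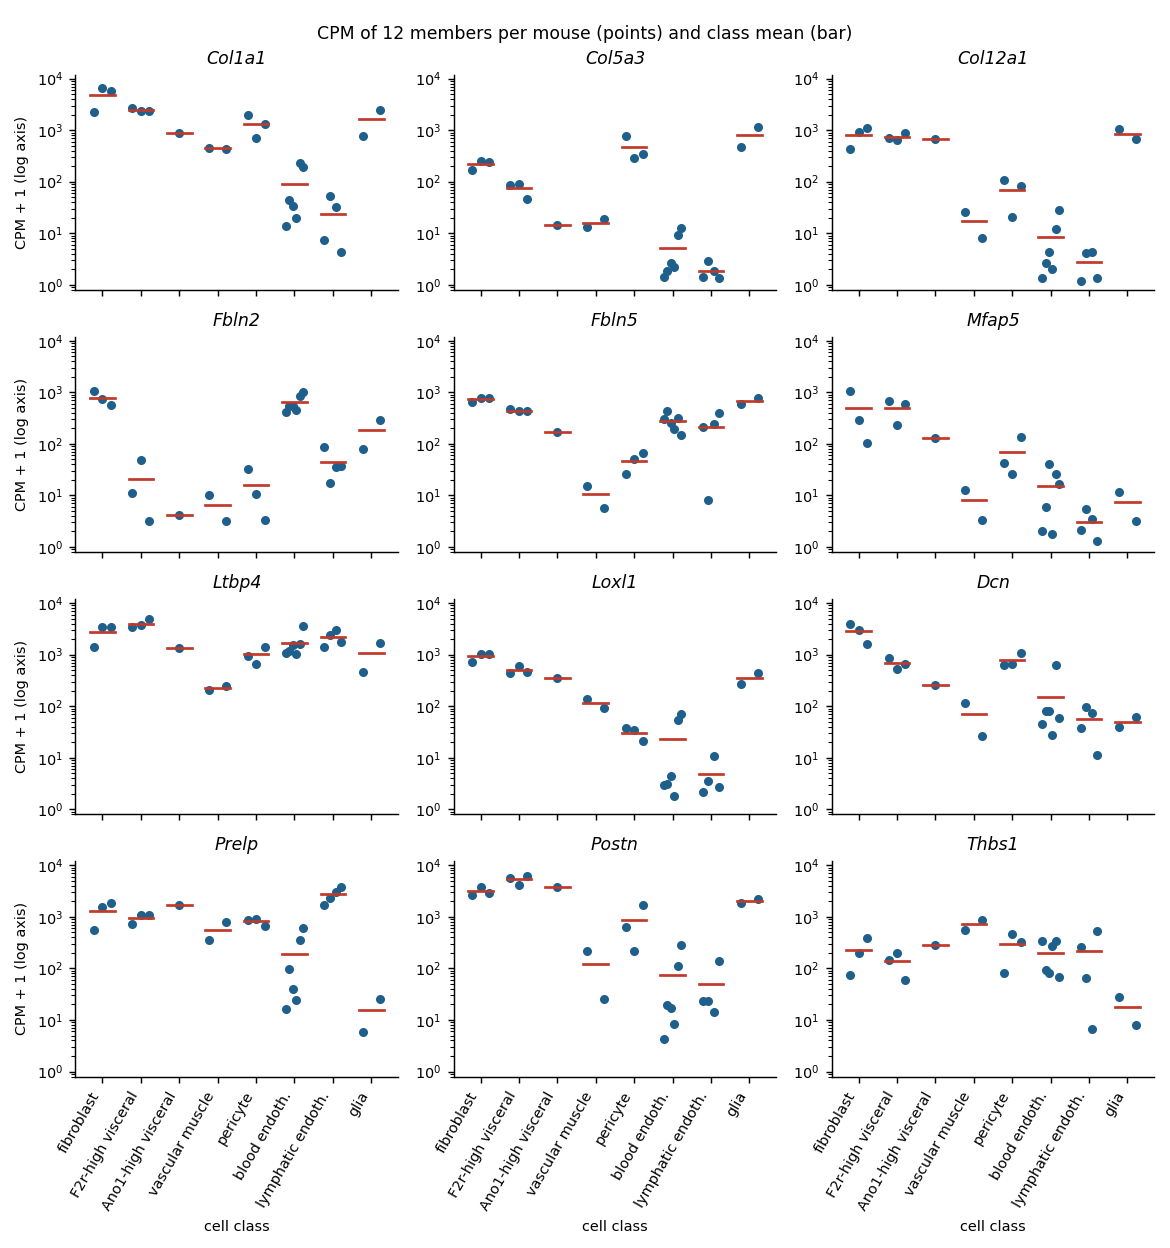
CPM + 1 on a log axis of 12 members in 8 classes; each point is 1 mouse with at least 5 cells of the class and each bar the mean over mice. Postn and Ltbp4 are highest in F2r-high visceral cells, Prelp in lymphatic endothelium and Thbs1 in vascular muscle, while Fbln2 is high in fibroblasts and blood endothelium.

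Among the crosslinking enzymes, Loxl1, which acts on elastin, was 710, 1032 and 1023 CPM in fibroblasts, 431.2, 592 and 462.3 CPM in F2r-high visceral cells and 269.1 and 433.2 CPM in glia. Pericytes had 36.2, 33.1 and 19.97 CPM of Loxl1, less than vascular muscle with 134.6 and 90.4 CPM. Lox, the founding member of the family, stayed at or below 181.96 CPM in all mice and classes. Loxl2 was 127.97, 86.1 and 140 CPM in fibroblasts and 60.4, 429.4, 56.1 and 9.06 CPM in lymphatic endothelium, where the highest value came from the mouse with 5 such cells.

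The small leucine-rich proteoglycans had sources in connective tissue, muscle and lymphatic cells. Dcn, decorin, was 3861, 3009 and 1601 CPM in fibroblasts, 867, 532 and 671 CPM in F2r-high visceral cells and 629, 644 and 1098 CPM in pericytes, while glia had 37.8 and 59.4 CPM. Lum, lumican, was 1675, 1385 and 780 CPM in fibroblasts and 542, 160 and 413.2 CPM in F2r-high visceral cells. Bgn, biglycan, was broad: 3161, 3954 and 3737 CPM in fibroblasts, 2624, 2204 and 3493 CPM in F2r-high visceral cells and 1070 and 1267 CPM in vascular muscle. Prelp, a heparin-binding member, was 1666, 2374, 3106 and 3784 CPM in lymphatic endothelium. Fibroblasts, with 549, 1564 and 1844 CPM of Prelp, and Ano1-high visceral cells, with 1708 CPM, reached the lower end of that range. In blood endothelium Prelp ran from 15.4 to 596 CPM with a median of 66.99, and glia had 4.89 and 24.9 CPM. Its reads overlap those of the opposite-strand gene Gm15851.

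Asporin and osteoglycin, encoded side by side on chromosome 13, were both found in visceral muscle and fibroblasts and differed in mural cells. Aspn was 969, 387.97 and 876 CPM in F2r-high visceral cells, 1000 CPM in Ano1-high visceral cells, 592, 642 and 523 CPM in fibroblasts, 864, 233.2 and 462.6 CPM in pericytes and 543 and 496.97 CPM in vascular muscle. It was at most 23.6 CPM in both endothelia and glia. Ogn was 1915, 599 and 727 CPM in F2r-high visceral cells and 447.9, 1113 and 877 CPM in fibroblasts but, unlike Aspn, only 45.5 and 166.02 CPM in vascular muscle. Fmod, fibromodulin, was 61.8 CPM in Ano1-high visceral cells and at most 19.002 CPM in the mice of the F2r-high subtype, while the pericytes of mouse 20GG95:3 had 67.9 CPM.

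Postn, periostin, was 5702, 4186 and 6146 CPM in F2r-high visceral cells, 3745 CPM in Ano1-high visceral cells and 2630, 3851 and 2901 CPM in fibroblasts. Glia carried it too, at 1902 and 2244 CPM, and pericytes at 646, 218.1 and 1726 CPM, whereas vascular muscle had 216.3 and 24.9 CPM. Fn1, fibronectin, was 1305, 2623 and 3341 CPM in fibroblasts and 1084, 1223 and 1081 CPM in F2r-high visceral cells, but 3.59 and 26.8 CPM in glia. Glia thus stood below but near the fibroblast level for Postn and close to 0 for Fn1.

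Thbs1, thrombospondin-1, was the member with its highest mean in vascular muscle, at 557 and 871 CPM, above all other mice and classes. The lower of these 2 values is from 16 cells. Blood endothelium had 66.04 to 346.3 CPM of Thbs1 and F2r-high visceral cells 144.1, 202.3 and 59.9 CPM. Thbs2 was instead highest in fibroblasts, with 202.4, 589 and 598 CPM. Tnc, tenascin C, was 52.9, 1002 and 1675 CPM in fibroblasts, with the lowest value again from mouse 19CB38:5, and 161.6, 386.6 and 371.6 CPM in F2r-high visceral cells. Tnxb, tenascin X, was 244.1, 693, 665 and 170 CPM in lymphatic endothelium and 276.2, 405.7 and 230 CPM in fibroblasts, against a median of 6.52 CPM in blood endothelium.

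Detection was counted per cell as well. After every cell was thinned to 40000 gene counts, 38 of the 41 genes were found in at least 50% of fibroblast-like cells, 29 in F2r-high visceral, 25 in Ano1-high visceral, 21 in pericyte-like, 21 in glia-like, 15 in vascular muscle, 7 in blood endothelium and 6 in lymphatic endothelium. Immune-like cells, at a median depth of 167185 gene counts, had 10 and epithelium-like cells 16 such genes, so that detection alone does not set a class apart from background. The same count over all genes was not made. Prelp was found in 97.3% of the 75 lymphatic cells (exact 95% interval 90.7 to 99.7%, counting error only) against 36.7% of immune-like cells. Col1a1 was found in 30.7% of lymphatic cells, below the 53.3% of immune-like cells, and is not read as expression. In glia Col1a1 was found in 97.6% of 41 cells and Postn in 97.6%, against 53.3% and 66.7% of immune-like cells. Epithelium-like cells, the other background, held 2555 CPM of Col1a1 and 1565 CPM of Postn in mouse 20GG79:6, which also gave glia. How much of the glial values is such background was not tested.

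To compare members with each other, levels were divided by gene length, since full-length reads favour long transcripts. Small leucine-rich proteoglycans made up 55.9% ± 7.18 of the members' length-corrected sum in lymphatic endothelium (n = 4) and 44.01% ± 4.79 in vascular muscle (n = 2). Elastic fibre and microfibril genes made up 71.1% ± 10.1 in blood endothelium (n = 6) and 25.9% ± 3.98 in fibroblasts (n = 3). Fibrillar collagens were 27.7% ± 6.25 in glia (n = 2), 26.1% ± 2.69 in pericytes (n = 3), 19.8% ± 5.73 in fibroblasts and 18.99% ± 1.63 in F2r-high visceral cells. In lymphatic endothelium the fibrillar collagens were 0.757% ± 0.544. Fibrillar collagen shares of the endothelia, at most 7.43% in any mouse, lay below those of all pericyte and glia samples, at least 23.3%, whereas those of fibroblasts and F2r-high visceral cells overlapped.

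Leading genes per kilobase of merged exons were Prelp (51.4% of the members' sum) and Ltbp4 (22.9%) in lymphatic endothelium and Ltbp4 (31.4%) and Fbln2 (12.2%) in blood endothelium. The same genes led when length was that of the principal transcript, with 43.3% and 23.1%, and 27.6% and 11.9%. In the other classes the leader depended on the length used: Col1a1 (7.85%) or Dcn (11.02%) in fibroblasts, Col6a1 (9.88%) or Postn (15.98%) in F2r-high visceral cells, Aspn (15.4%) or Bgn (22.8%) in vascular muscle, Col6a1 (12.6%) or Bgn (12.8%) in pericytes and Col6a1 (11.4%) or Postn (18.8%) in glia. The merged exons of Dcn are 3.32 times as long as its principal transcript, so the order of members within these classes is not settled by these counts.

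**Figure D2:**
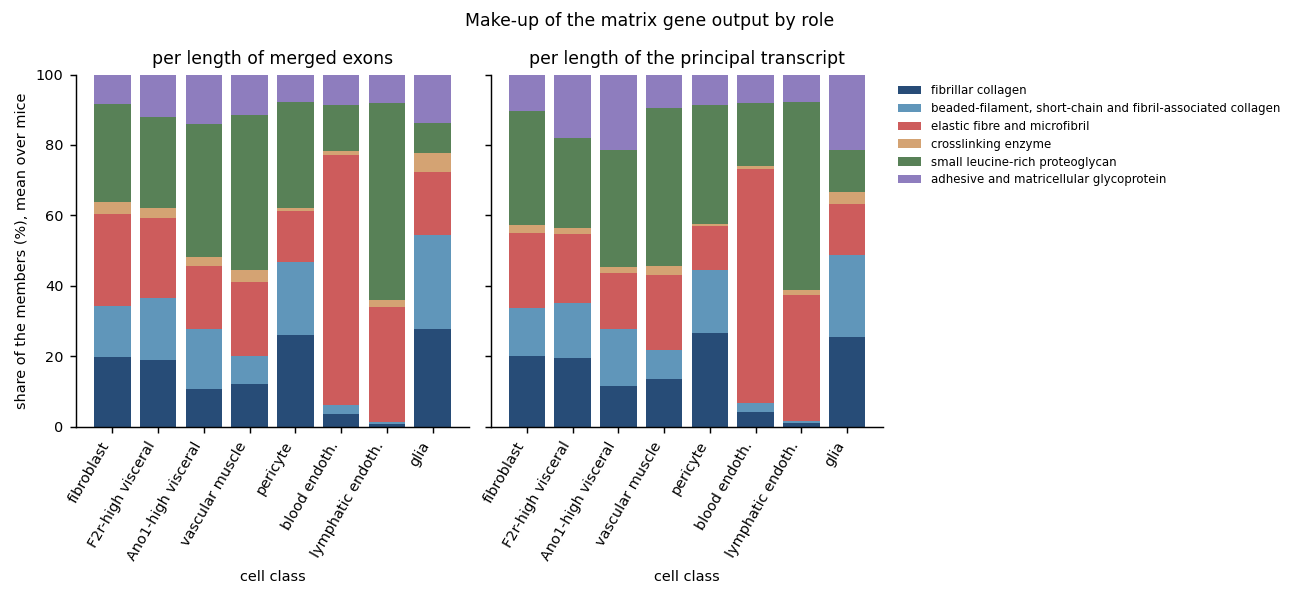
Share of each of the 6 roles in the members' summed level per length (percent, mean over mice, bars stacked to 100), for the length of merged exons (left) and of the principal transcript (right). Elastic fibre and microfibril genes fill 71.1% of the blood endothelium bar on the left and proteoglycans 55.9% of the lymphatic bar.

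Levels of several neighbouring genes ran in parallel over the 8 classes. Pearson's r of log levels was 0.996 for Col6a1 and Col6a2, whose promoters are printed above, 0.98 for Col3a1 and Col5a2, 0.92 for Aspn and Ogn, 0.86 for Dcn and Lum and 0.51 for Prelp and Fmod, against a median of 0.52 over all 820 pairs of members. These are descriptions over 8 classes that share mice and libraries.

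Fibroblasts were then set against visceral muscle within mice 20GG79:1 and 20GG79:6, with at least 72 cells of each class in each mouse. Of the 41 genes 5 were higher in fibroblasts and 0 in visceral muscle, where 0.439% of all 15491 tested genes were called in either direction (0.219% higher in fibroblasts and as many lower). The median difference was 0.93 on the log2 scale over the members and 0.02 over all tested genes. Fbln1 was higher by 2.78 ± 0.20 (log2 fold change ± SE, adjusted p = 0.0324, edgeR), with 3532 and 2707 CPM in fibroblasts against 417.1 and 480 CPM in the visceral muscle of the same mice. Tnc was higher by 2.33 ± 0.21 (adjusted p = 0.0400), Dcn by 1.69 ± 0.17 (adjusted p = 0.0440), Col1a1 by 1.30 ± 0.13 (adjusted p = 0.0449) and Col5a1 by 2.01 ± 0.22 (adjusted p = 0.0475). Fbln2 differed more, by 4.88, without passing the threshold (adjusted p = 0.0862). Postn (-0.56), Ltbp1 (-1.21) and Mfap5 (-1.21) had the opposite sign and did not pass. With DESeq2 17 members were higher and 2 lower in fibroblasts (7.61% of genes called), and without cells that hold markers of another class 11 were higher (1.1% of genes), whereas 0 were called in one fit over all classes or after leaving out either mouse.

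Against pericytes of the same 2 mice, 0 of 41 genes were called by edgeR, and 0.0% of all 13858 tested genes. At an unadjusted p under 0.05 there were 33 members, against 11.4% of genes, and DESeq2 called 16, all higher in fibroblasts, where it called 8.64% of all tested genes. One fit over all classes called 2 members (0.061% of genes). The median difference was 2.10 over the members and 0.19 over all genes. Mfap4 (5.22), Fbln2 (5.19), Lum (5.02), Loxl1 (4.90) and Fbln1 (4.52) had the widest differences. Col5a3 (-0.94) and Ltbp1 (-0.36) were the members with the opposite sign. Mouse 20GG79:6 contributed 29 pericyte-like cells.

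Visceral against vascular muscle, in mice 20GG79:1 and 20GG95:3, gave the most calls of the 6 paired tests: 22 of 41 genes were higher in visceral muscle and 1 in vascular muscle, where 2.19% and 2.43% of 14303 tested genes were called in these directions and 4.62% in all. The median difference was 2.41 over the members and 0.24 over all genes. Col3a1 was higher by 3.77 ± 0.26 (adjusted p = 9.83e-13), with 5491 and 3974 CPM against 384.4 and 253.6 CPM. Ltbp4 was higher by 3.80 ± 0.28 (adjusted p = 3.37e-12), and Fbln5, a fibulin of elastic fibres, by 5.45 ± 0.52 (adjusted p = 2.28e-09). Fibronectin followed the same direction: Fn1 was 1076 and 888 CPM in visceral and 45.5 and 10.5 CPM in vascular muscle, a difference of 5.35 ± 0.46 (adjusted p = 3.43e-08). Of the fibrillar chains, Col5a2 (4.37), Col5a1 (3.52), Col1a1 (2.16) and Col1a2 (1.54) were higher in visceral muscle, and Col5a3 (1.73) did not pass. All 3 type VI chains passed (Col6a1 3.41, Col6a2 2.91, Col6a3 1.82), as did Col12a1 (5.73) and Col16a1 (2.25).

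Several elastic fibre and proteoglycan genes were called in the same direction. Mfap5 (6.65), Mfap2 (4.46), Mfap4 (4.08), Fbln1 (2.82) and Fbn1 (2.41) were higher in visceral muscle, and so were Lum (4.97), Dcn (3.53), Loxl1 (1.79) and Bgn (1.08). Thbs1 was the exception, lower in visceral than in vascular muscle by 2.42 ± 0.36 (log2, adjusted p = 1.13e-05), with 149.05 and 137.4 CPM against 557 and 871 CPM. It was not called among the deeper cells or with F2r-high visceral cells alone. Postn (6.09) and Ogn (3.60) had wide differences that did not pass (adjusted p = 0.413 and 0.499), with vascular values of the 2 mice far apart. Eln (-1.35), Emilin1 (0.31), Ltbp1 (0.29), Aspn (0.74) and Prelp (0.73) did not pass either. Genes of dissociation and stress moved in the opposite direction: 15 of 21 tested were higher in vascular muscle, among them Nr4a1, an immediate early gene, at 5039 and 7191 CPM against 686.05 and 746 CPM. The summed level of that list was 33573 and 38241 CPM in vascular and 10940 and 10025 CPM in visceral muscle. Its part in the matrix difference was not tested. Without the mouse block 15 members were called (1.74% of genes), and leaving out either mouse, which leaves a single pair and borrows the spread of the other classes, gave 0. One fit over all classes called 1 member (0.128% of genes).

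Visceral muscle against pericytes, over 3 mice, had 8 of 41 genes higher in visceral muscle and 1 higher in pericytes, with 0.456% and 0.433% of 13389 tested genes called in these directions and 0.889% in all. Loxl1 was higher by 4.05 ± 0.35 (adjusted p = 0.0111), at 430, 587 and 407.2 CPM against 36.2, 33.1 and 19.97 CPM. Ogn (3.49), Fn1 (2.04), Ltbp4 (1.90), Col12a1 (3.73), Mfap4 (4.27), Fbln5 (3.24) and Postn (3.05) were the other 7. Col5a3 was lower in visceral muscle by 2.72 ± 0.41 (log2, adjusted p = 0.0408), with 86.4, 88.9 and 33.7 CPM against 772, 289.2 and 340 CPM and no overlap. Of the banded collagens, Col1a1 (0.88), Col1a2 (0.76) and Col3a1 (0.64) missed the threshold with adjusted p of 0.243, 0.135 and 0.284. Without mouse 20GG79:6 a single member was called (0.12% of genes), and among the deeper cells 2 (0.244%), while one fit over all classes called 0 (0.0776% of genes).

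Pericytes against vascular muscle, in mice 20GG79:1 and 20GG95:3, had 10 of 40 tested genes higher in pericytes and 1 higher in vascular muscle, with 0.297% and 0.603% of 12102 tested genes called in these directions and 0.901% in all. Collagens made up most of them: Col3a1 (3.37 ± 0.32, adjusted p = 0.000841), Col6a1 (2.98), Col5a3 (4.89), Col5a1 (4.31), Col5a2 (3.41), Col6a2 (2.17) and Col6a3 (2.53). Fbn1 (2.77), Ltbp4 (2.17) and Dcn (3.73) completed the list. Thbs1 was lower in pericytes by 2.32 ± 0.44 (log2, adjusted p = 0.0362), with 80.5 and 321.6 CPM against 557 and 871 CPM. It was not called among the deeper cells or without the mouse block. All 3 type V and all 3 type VI chains therefore differed between the 2 kinds of mural cell, while Col1a1 (1.66, adjusted p = 0.0562) and Aspn (0.08) did not pass. Stress genes again stood higher in vascular muscle (12 of 21 tested, 0 in the other direction), and their part was not tested. Mouse 20GG95:3 was sorted on 2 plates, and without either plate 0 members were called. Leaving out either mouse also gave 0.

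**Figure D3:**
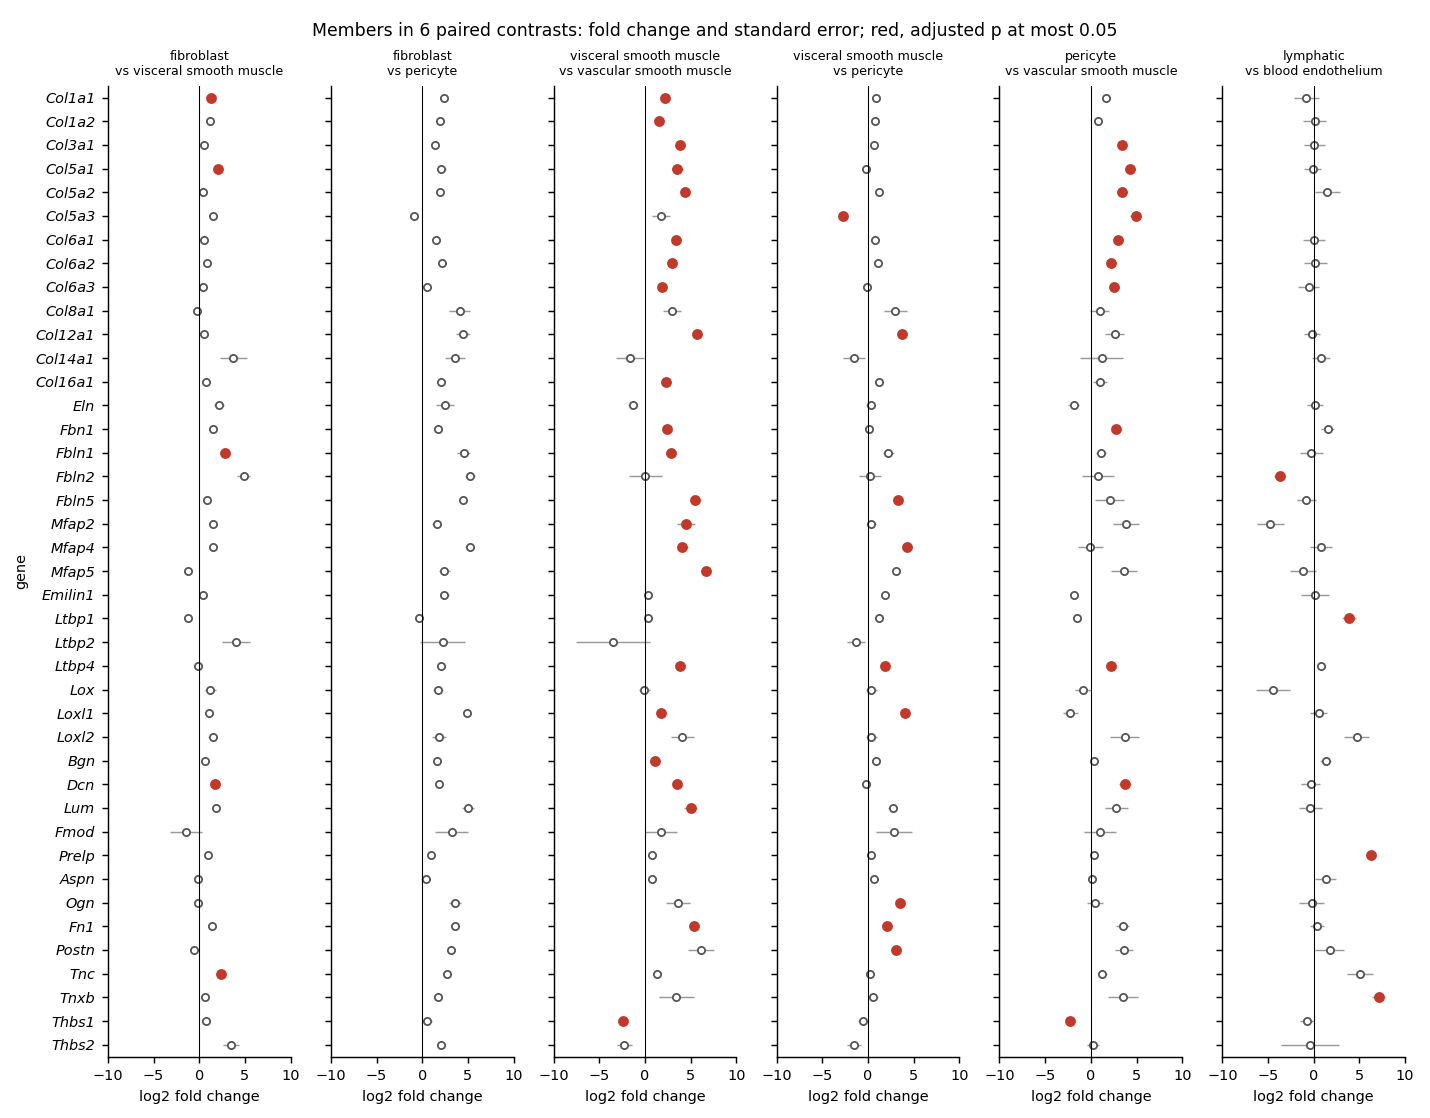
Log2 fold change (points) of each member in the 6 comparisons tested within mice, with a standard error calculated back from the test statistic (lines). Red points have an edgeR adjusted p of at most 0.05. Visceral against vascular muscle has 23 red points, with Thbs1 the one below 0, and fibroblast against pericyte has 0.

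The 2 endothelia were compared in 4 mice with 5 to 41 lymphatic and at least 23 blood endothelium-like cells in each. Of 36 tested members 3 were higher in lymphatic and 1 in blood endothelium, with 0.846% and 0.825% of 9698 tested genes called in these directions and 1.67% in all. The median difference was 0.12 over the members and -0.55 over all genes. One fit over all classes called 7 members (2.51% of genes). Prelp was higher in lymphatic endothelium by 6.27 ± 0.46 (adjusted p = 0.000113), at 1666, 2374, 3106 and 3784 CPM against 15.4, 94.6, 39.4 and 23.7 CPM in the blood endothelium of the same mice. Tnxb was higher by 7.13 ± 0.72 (adjusted p = 0.000665), at 244.1, 693, 665 and 170 CPM against 0.972, 2.26, 10.8 and 2.03 CPM. Ltbp1, which holds latent TGF-beta, was higher by 3.83 ± 0.79 (adjusted p = 0.0434), at 174.4, 213.7, 268.4 and 361.9 CPM against 13.9, 4.41, 33.99 and 36.2 CPM. Fbln2 was lower by 3.74 ± 0.58 (log2, adjusted p = 0.0105), at 86.8, 16.7, 34.98 and 35.6 CPM against 418.6, 545, 549 and 457.9 CPM. The ranges did not overlap for any of the 4, which are the genes that the test had called. Ltbp4, the shared elastic-fibre gene of both endothelia, differed by 0.80 (adjusted p = 0.0726). Without the 29 lymphatic and 19 blood endothelial cells that hold markers of another class, Prelp and Tnxb still passed, while Fbln2 (-2.88, adjusted p = 0.0567) and Ltbp1 (3.72, adjusted p = 0.0924) did not. Ltbp1 also missed the threshold without mouse 17E61:24 (adjusted p = 0.121), without 18CB39:3 (0.0675) and without 19CB27:3 (0.225), whereas the other 3 genes passed without any 1 mouse. Over all alternatives the adjusted p of Ltbp1 ran from 7.73e-05 to 0.225.

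Fibroblasts and blood endothelium shared 1 mouse, 20GG79:6, with 72 and 36 cells, so that no test paired by mouse could be made. In it 35 of the 41 genes were at least 2-fold higher in fibroblasts and 0 at least 2-fold lower, where 31.4% and 25.5% of 9194 genes with enough counts passed those folds, 56.9% in all. The exceptions were elastic-fibre genes and 2 genes of low level: Ltbp4 (-0.08 on the log2 scale), Eln (-0.21), Fbln2 (-0.83), Fbn1 (0.82), Col8a1 (0.76) and Fmod (0.41). Fbn1 in blood endothelium was 500 CPM in this mouse and 32.2 to 308.4 CPM in the other 5. Ltbp4 was 3564 CPM in the blood endothelium of this mouse and 1030 to 1603 CPM in the other 5. Blood endothelial Eln and Fbln2 were also highest in this mouse. Without the 2 mice with high epithelial Col1a1, this one among them, Eln ran from 81.1 to 173.3 CPM and Fbln2 from 418.6 to 548.9 CPM. The small differences of these genes are therefore those of 1 mouse and were not tested within the others. A fit over all mice without a block called 30 of 39 members, all higher in fibroblasts (7.06% of all genes), and one fit over all classes 11 of 41 (0.31%).

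Glia and fibroblasts also shared mouse 20GG79:6 alone, with 21 and 72 cells. Col5a3 (2.27 on the log2 scale), Col8a1 (2.09) and Col14a1 (1.40) were at least 2-fold higher in glia, where 25.9% of 9069 genes were. In the other direction were 27 members, against 38.3% of genes (64.2% in either direction), with the widest differences for Thbs2 (-6.94), Fn1 (-6.91), Ogn (-6.91), Mfap4 (-6.49) and Aspn (-6.17). Fbln5 (0.03), Postn (-0.37) and Col6a3 (-0.38) stood at nearly the same level in both. The fibroblast marker Dpt, a dermatopontin gene, was 14.3 CPM in the glia of this mouse and 1011 CPM in its fibroblasts. A fit over all mice without a block called 10 members, all lower in glia (1.34% of all genes), and one fit over all classes 3 (0.111%).

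The visceral subtypes could be compared in mouse 20GG95:3 alone, on 2 plates, with 100 Ano1-high cells and a larger number of F2r-high cells. The plates hold cells of 1 animal and are not replicates. In 10 of 38 members with enough counts the level was at least 2-fold higher in F2r-high cells on both plates, against 6.83% of 7557 genes: Mfap5, Ltbp4, Col5a3, Col3a1, Col1a2, Emilin1, Col1a1, Fbln5, Col5a2 and Fn1. Over both plates together 16 members differed by at least 2-fold (31.1% of 8651 genes did), and 13 of them were higher in F2r-high cells (13.1% of genes). In the other direction on each plate was Fmod, at 58.6 and 64.98 CPM in Ano1-high cells against 2.02 and 1.23 CPM, where 7.23% of genes passed. Col3a1 was 6220 and 4090 CPM in F2r-high and 2395 and 1042 CPM in Ano1-high cells on the 2 plates. Prelp (-0.51 and -0.76), Tnc (-0.58 and -0.72), Eln (-2.87 and -0.79) and Thbs1 (-3.21 and -0.56) were lower in F2r-high cells on both plates without reaching 2-fold on both. Postn, the leading gene of both subtypes by principal transcript length, differed by 0.65 and 0.78. Ptger1, chosen as a marker of the F2r-high subtype, was higher in the Ano1-high cells. The edgeR fit over all mice called 0 members and 0.0% of genes.

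Fibroblasts formed 2 clusters, and several elastic matrix genes were lower in one of them. The larger (cluster 0) had Dpt and Clec3b among its leading genes, and the smaller (cluster 8), of 68 of the 220 cells, Pdgfra and Bmp5, with Acta2 at 1987 and 2048 CPM in mice 20GG79:1 and 20GG79:6 against 898 and 778 CPM. In both mice 12 of 39 members with enough counts were at least 2-fold lower in the smaller cluster, against 6.69% of 7875 genes: Col14a1, Col8a1, Mfap5, Eln, Mfap4, Fbln2, Tnxb, Fbln1, Ltbp1, Dcn, Lox and Ltbp4. Eln was 48.3 and 15.3 CPM in the smaller and 853 and 379.1 CPM in the larger cluster. Mfap4 was 78.6 and 99.1 CPM against 1369 and 1270 CPM, and Col14a1 16.3 and 5.18 CPM against 831 and 401.8 CPM. Ranges did not overlap for any of these 3 genes, which were among those picked for being at least 2-fold lower in both mice. Ogn was the single member at least 2-fold higher in the smaller cluster in both mice (5.61% of genes), at 2080 and 1218 CPM against 726 and 561 CPM. Type I and type VI collagens differed by less than 2-fold: Col1a1 was 6138 and 5496 CPM in the smaller and 6833 and 5933 CPM in the larger, and Col6a1 4795 and 4585 CPM against 3399 and 3874 CPM. The Col6a1 values were higher in the smaller cluster in both mice. These cluster values were not tested.

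**Figure D4:**
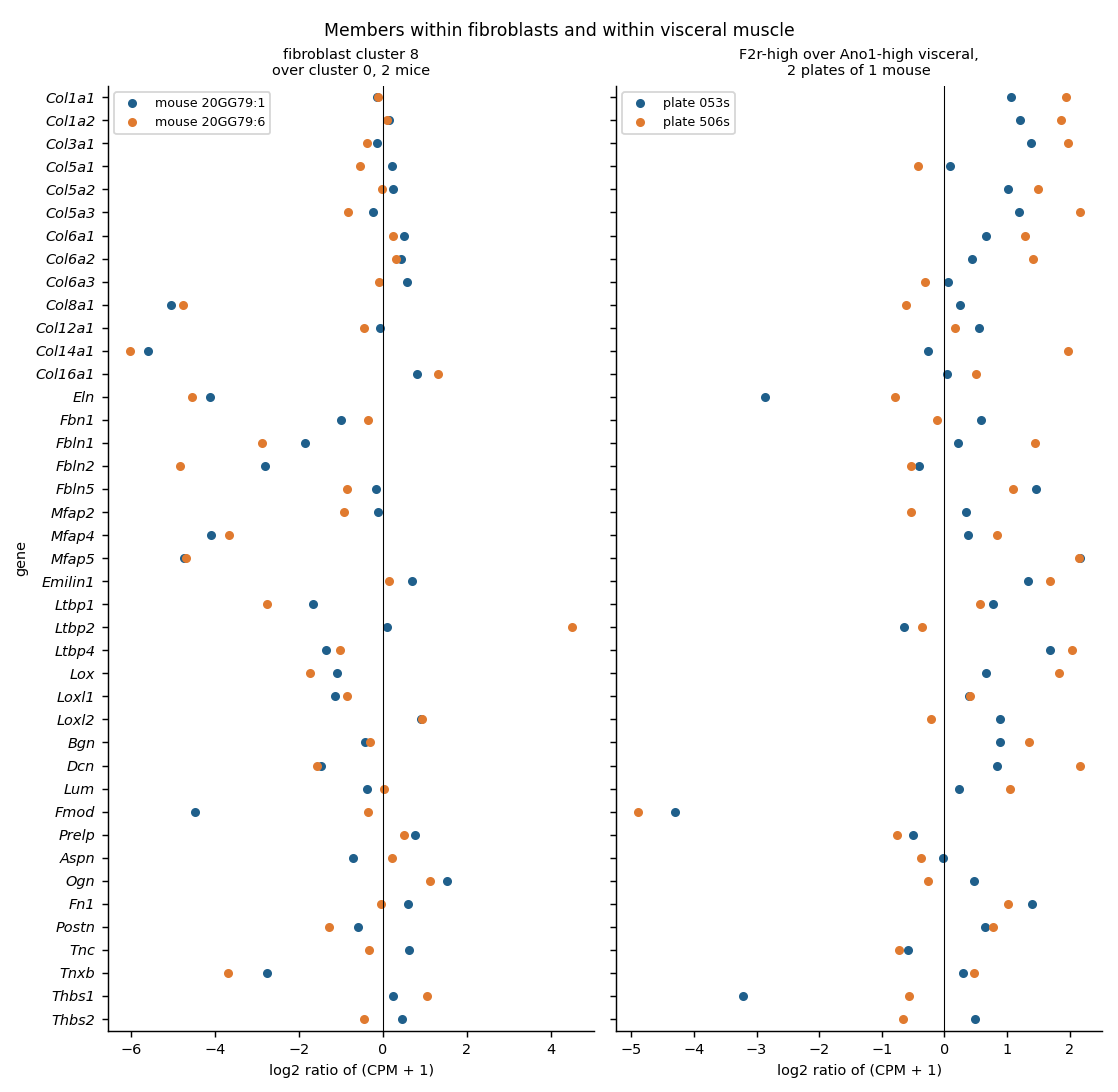
Log2 ratio of CPM + 1 of each member between fibroblast cluster 8 and cluster 0 in 2 mice (left) and between F2r-high and Ano1-high visceral cells on 2 plates of mouse 20GG95:3 (right). On the left Col14a1, Col8a1, Mfap5, Eln and Mfap4 lie below -3 in both mice while Col1a1 lies near 0, and on the right Fmod lies below -4 on both plates.

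The other genes of matrix assembly were taken from 4 lists. The collagen processing list held 30 genes for hydroxylases, chaperones and propeptide cleavage. Of 28 tested, 2 were higher in visceral than in vascular muscle, Plod2 (3.69), a lysyl hydroxylase, and Loxl4 (6.88), and 0 lower. Of all tested genes 2.19% were called higher and 2.43% lower. Sparc, a collagen-binding protein, was lower in lymphatic than in blood endothelium by 4.10 ± 0.27 (log2, adjusted p = 5.22e-05, edgeR). Its levels were 136.6, 90.1, 183.03 and 280 CPM against 2932, 2401, 2578 and 2980 CPM. It was the single call of 23 tested, where 1.67% of all tested genes were called. The other 4 tested comparisons called 0 of 25 to 30 genes by edgeR, with 3 to 14 at an unadjusted p under 0.05. The 3 were from pericytes against vascular muscle, where 1178 of all 12102 genes had such a p. The 14 were from fibroblasts against visceral muscle, where 1684 of all 15491 genes had. Summed collagen processing levels were 11223 to 11947 CPM in fibroblasts and 10616 to 11042 CPM in glia, against 2356 to 3706 CPM in lymphatic endothelium, at the level of immune-like cells (2552 and 3058 CPM).

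Of the TGF-beta list, 3 of 23 tested were higher in visceral muscle than in vascular muscle and 3 lower. Of all tested genes 2.19% were called higher and 2.43% lower. Tgfbi, a matrix protein induced by TGF-beta, was 2402 and 2281 CPM against 44.7 and 11.5 CPM (6.56 ± 0.46, adjusted p = 2.63e-07), and the receptors Tgfbr3 (1.88) and Acvrl1 (2.15) were also higher. The ligands Tgfb2 (-3.73) and Tgfb3 (-2.62) and their carrier Lrrc32 (-2.48) were higher in vascular muscle. Tgfbi was also higher in visceral muscle than in pericytes (3.67, 1 of 22, against 0.456% of all genes). Acvrl1 was higher in pericytes than in vascular muscle (2.57, 1 of 21, against 0.297%). Between the endothelia, Tgfb3 (7.67) and Tgfbi (3.70) were higher and the co-receptor Eng (-1.19) lower in lymphatic cells. These were 2 and 1 of 21 tested, against 0.846% and 0.825% of all genes. Tgfb3 stood at 122.8, 315.5, 468.6 and 118.4 CPM in lymphatic against 0.900, 0.861, 1.89 and 0.790 CPM in blood endothelium. In the fibroblast comparisons 0 of 25 (visceral muscle) and 0 of 24 (pericytes) were called by edgeR, against 0.439% and 0.0% of all genes. At an unadjusted p under 0.05 there were 8 and 7, against 1684 of 15491 and 1579 of 13858 genes.

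Of the matrix turnover list, the gelatinase Mmp2 was higher in fibroblasts than in visceral muscle (2.50 ± 0.17, adjusted p = 0.0324, edgeR). Its levels were 2536 and 2998 CPM against 407.7 and 575 CPM. It was the single gene of 26 tested, against 0.219% of all genes. Visceral exceeded vascular muscle for 7 of 27 (2.19% of all genes), among them Mmp2 (3.55), Mmp19 (7.12), Plau (3.96) and Timp2 (1.60). It was lower for 5 (2.43% of all genes), among them Adamts1 (-2.91), Timp3 (-1.86), Adamts5 (-3.79) and Plat (-2.43). Timp3, an inhibitor bound to the matrix, was lower in visceral muscle than in pericytes (-2.08) and Timp2 higher (1.85). These were 1 each of 25 tested, against 0.433% and 0.456% of all genes. Pericytes exceeded vascular muscle for Mmp2 (3.89) and were lower for Adamts1 (-3.28), 1 each of 23, against 0.297% and 0.603%. Lymphatic exceeded blood endothelium for Timp3 (1.47) and Timp2 (5.41) and was lower for Mmp15 (-7.46). These were of 18 tested, against 0.846% higher and 0.825% lower of all genes. Of the dissociation and stress list, 0 of 21 were higher and 3 lower in lymphatic endothelium (Nr4a1, Hspb1 and Ier3), against the same shares. Their part in the endothelial difference was not tested.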

How the data were processed

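Smart-Seq2 counts of 1615 cells from 11 mice were analysed. The deposited values are raw read counts per Ensembl gene and cell; the submitters' processing notes name bcl2fastq, Bowtie, Bowtie2, featureCounts and Subread and the builds GRCm38 and mm10, without versions or roles, and whether strand was used is not given in the sources used here. No cell had the same counts as another. Plates of 20GG95:3 are the 2 plate codes in the titles.

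The 41 members, the marker lists and the pathway lists were chosen with earlier results of these data known. Symbols, gene positions and lengths came from GENCODE vM21. Cells were clustered with scanpy 1.11.5 on 2078 genes (2000 variable genes and 78 markers; 20 components, 15 neighbours, resolution 1), members and list genes left out. All 19 clusters were named from at least 3 markers. No doublet caller was run. An alternative dropped each cell in which 2 or more markers of a foreign class exceeded the median of the class they mark. Counts were summed per mouse and class with at least 5 cells, and CPM were taken over all gene counts without spike-ins (1.88% of all counts). Mouse identity pairs the sums: classes of 1 mouse come from the same animal. Members were named by value per mouse where they passed a comparison or had at least 50 CPM in a class. Of each pathway list up to 4 genes per comparison and direction were named by smallest p.

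The main test was edgeR 4.0.16 (R 4.3.3), quasi-likelihood with TMM scaling, filterByExpr and the mouse as a block, Benjamini-Hochberg adjusted over the tested genes not used for clustering, at 0.05. Residual degrees of freedom were 1 with 2 mice, 2 with 3 and 3 with 4. The SE beside a log2 fold change was calculated back from the test statistic and is not a spread over mice. Counts were also simulated, with the same set spread for every gene and no differences between mice other than the library total. For fibroblast against visceral muscle (16718 genes), 66 of 100 genes changed by 2 on the log2 scale were found and 99 of 100 changed by 4. For lymphatic against blood endothelium (11976 genes), 96 and 100 were found. Each simulation had 5 false calls. Real sums also differ between mice, so these shares do not give the power of the tests above. Comparisons with 1 shared mouse have no paired test and give ratios of CPM + 1. Alternatives were RLE scaling, DESeq2 1.42.0, no filter, no replicate block, resolution 0.5, unmixed cells, deeper cells, leaving out each mouse, one fit over all classes and, chosen after seeing the data, F2r-high cells alone, each plate of 20GG95:3, each mouse for the levels and the principal transcript length. Counting intervals do not cover amplification.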

Additional observations from a re-analysis of the deposited data

Results flagged for a closer look

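In 33 groups of 4 to 6 mice (members with at least 50 CPM in blood or lymphatic endothelium), 3 held a mouse far from the others. The rule used flags about 1 in 20 groups of independent, normally distributed values. These groups are CPM values of the same few mice, so that rate need not hold and no excess is read from the 3. Ltbp4 was 3564 CPM in the blood endothelium of mouse 20GG79:6, against 1030 to 1603 CPM in the other 5 mice. Dcn was 629 CPM in the blood endothelium of mouse 19CB4:5, against 26.1 to 79.5 CPM in the others, and without that mouse and 20GG79:6 its mean was 56.98 ± 26.8 CPM in place of 152.7 ± 234.4. Loxl2 was 429.4 CPM in the lymphatic endothelium of mouse 18CB109:10, with 5 cells, against 9.06 to 60.4 CPM in the other 3 mice, and the lead of lymphatic endothelium for Loxl2 passed to fibroblasts without that mouse. Outside the classes compared, Col1a1 was 2555 CPM in the epithelium-like cells of mouse 20GG79:6, against 9.42 and 61.1 CPM in immune-like cells, and its cause was not tested.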

How the results depend on the processing

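Counts of called members moved with the processing. Directions were followed only for pairs called in the main fits, which had clear differences to begin with. They do not speak for the members that were not called. Of 52 member and comparison pairs called, 660 values under other settings were computed: 66.8% still passed, 33.2% kept the direction without passing and 0 reversed. Counts are of members, with the share of all genes called in parentheses. For fibroblast against visceral muscle (5, all higher) it was 19 with DESeq2 (17 higher and 2 lower, 7.61%), 13 without a filter (1.21%), 8 at resolution 0.5 (0.786%), 11 with unmixed cells (1.1%), 0 in one fit over all classes and 0 without either mouse. For fibroblast against pericyte (0) it was 16 with DESeq2 (8.64%), 23 without a filter (0.61%), 22 with unmixed cells (1.28%) and 2 in one fit (0.061%), all higher in fibroblasts. For visceral against vascular muscle (23) it was 1 in one fit (0.128%) and 0 without either mouse. For visceral muscle against pericyte (9) it was 14 with DESeq2 (13 higher and 1 lower, 11.1%), 15 without a filter (14 and 1, 0.911%), 2 with deeper cells (0.244%), 0 in one fit (0.0776%) and 1 to 10 without 1 mouse. For pericyte against vascular muscle (11) it was 23 with DESeq2 (19 higher and 4 lower, 6.25%), 4 with deeper cells (0.244%), 0 without either plate of 20GG95:3, 0 in one fit and 0 without either mouse. For lymphatic against blood endothelium (4) it was 8 with DESeq2 (5 higher and 3 lower, 14.2%), 2 with unmixed cells (1.44%), 7 in one fit (5 and 2, 2.51%) and 3 to 4 without 1 mouse. Fits over all mice gave 30 for fibroblast against blood endothelium and 10 for glia against fibroblast, and one fit over all classes 11 and 3. The number of members highest in fibroblasts (26) ran from 22 to 27 without 1 mouse. The causes of these moves were not tested, except that deeper cells are fewer cells and that a comparison left with 1 mouse borrows the spread of the other classes.

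Without the replicate block, which pairs classes of the same mouse, the counts were 4, 0, 15, 7, 6 and 6 in the same order, with 0.516%, 0.0%, 1.74%, 1.76%, 0.413% and 2.79% of all genes called. It moved 2 of them by over 1.5 times, visceral against vascular muscle (15) and pericyte against vascular muscle (6). For the 3 comparisons with 1 shared mouse, RLE scaling, DESeq2, the filter and leaving out a mouse were not run, since they have no paired test. With 2 mice in most comparisons and down to 5 cells in a sum, a p above the threshold does not show that levels are equal.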

Other observations

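The 20 visceral cells that joined neither subtype, all from mouse 20GG95:3, and the mesothelial and neuronal marker lists belong in no comparison above. Mesothelial markers summed to at most 6.09 CPM in fibroblast-like cells and neuronal markers to at most 49.2 CPM, against 97.6 and 310 CPM of neuronal markers in glia-like cells. Pericyte markers summed to 3656 and 4568 CPM in vascular muscle and to 8030 to 11069 CPM in pericyte-like cells, and vascular muscle markers to 710.0 to 3579 CPM in pericytes, so the 2 mural classes shared markers.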
